A study of Mus musculus with 6 samples.

Results

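Axon guidance ligands and receptors were followed in mouse corneas 12 months after a single open-field blast injury (OFBI). The members were the 67 genes, of 22007 symbols in the count tables, whose symbols name a class 3 to 7 semaphorin, a plexin, a neuropilin, an Eph receptor, an ephrin, Slit1 to Slit3, Robo1 to Robo3, a netrin, an Unc5 receptor or Dcc. They fall into 4 subfamilies, with 31 semaphorin-plexin, 22 Eph-ephrin, 6 Slit-Robo and 8 netrin genes. The OFBI group consisted of male C57BL/6J mice exposed, awake, to the detonation of 350 g of C-4, a plastic explosive, at a distance of 3 m. The Naive group consisted of male C57BL/6J mice with the same 12-month label, for which no exposure or sham handling is described. Each group had 3 RNA-seq libraries, and each library was a pool of corneas of an unstated number of animals. The comparison asks which of these genes differed between OFBI and Naive corneas.

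Guidance cues were named for steering growing axons, and most act as a ligand on one cell and a receptor on its neighbour. Semaphorins signal through plexins, with neuropilins as co-receptors for the secreted class 3 forms. Ephrins are membrane-bound ligands of Eph receptor tyrosine kinases, Slits bind Robo receptors, and the classic netrin, netrin-1, binds Dcc and the Unc5 receptors. The cornea is densely innervated by sensory axons whose cell bodies lie in the trigeminal ganglion, outside the tissue. Its epithelium and stroma use the same families in cell sorting, migration and the control of vessel growth.

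After OFBI, 5 ligand genes rose: the ephrin Efnb1, the semaphorins Sema6c and Sema3f, the Slit gene Slit3 and the netrin Ntn4. Among receptors, Plxnb1 and Ephb3 rose and Epha2 fell. The fitted folds were 4.36 for Sema6c, 3.21 for Efnb1, 2.89 for Slit3, 1.88 for Ntn4 and 1.79 for Sema3f. Among the receptors that rose they were 1.61 for Plxnb1 and 1.37 for Ephb3. Once a trend on GC content and transcript length was removed, Sema3f, Plxnb1 and Ephb3 no longer passed. Their log2 fold changes were then 0.26, 0.03 and -0.04 (edgeR adjusted p = 0.235, 0.932 and 0.902). Efnb1, Sema6c, Slit3, Ntn4 and Epha2 still passed. Of the 67 members, 57 passed the filter on low counts, and 7 of these were called higher and 6 lower by edgeR's quasi-likelihood test, at a p adjusted by Benjamini-Hochberg of under 0.05. Over all 13941 genes tested, 8.41% were called higher and 10.4% lower, or 18.8% in either direction, so the members' shares of 12.3% and 10.5% lay near the background. With library size as the only scaling, 6 members were higher and 8 lower, against 6.21% and 14.6% of all genes, whose median shifted to -0.40 on the log2 scale, from -0.20 with TMM. The other 5 members called lower had no count in any OFBI library and were below what those libraries could detect, as given further on. Since the tissue was measured in bulk, fewer cells of a type and less RNA per cell cannot be told apart.

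**Figure D1:**
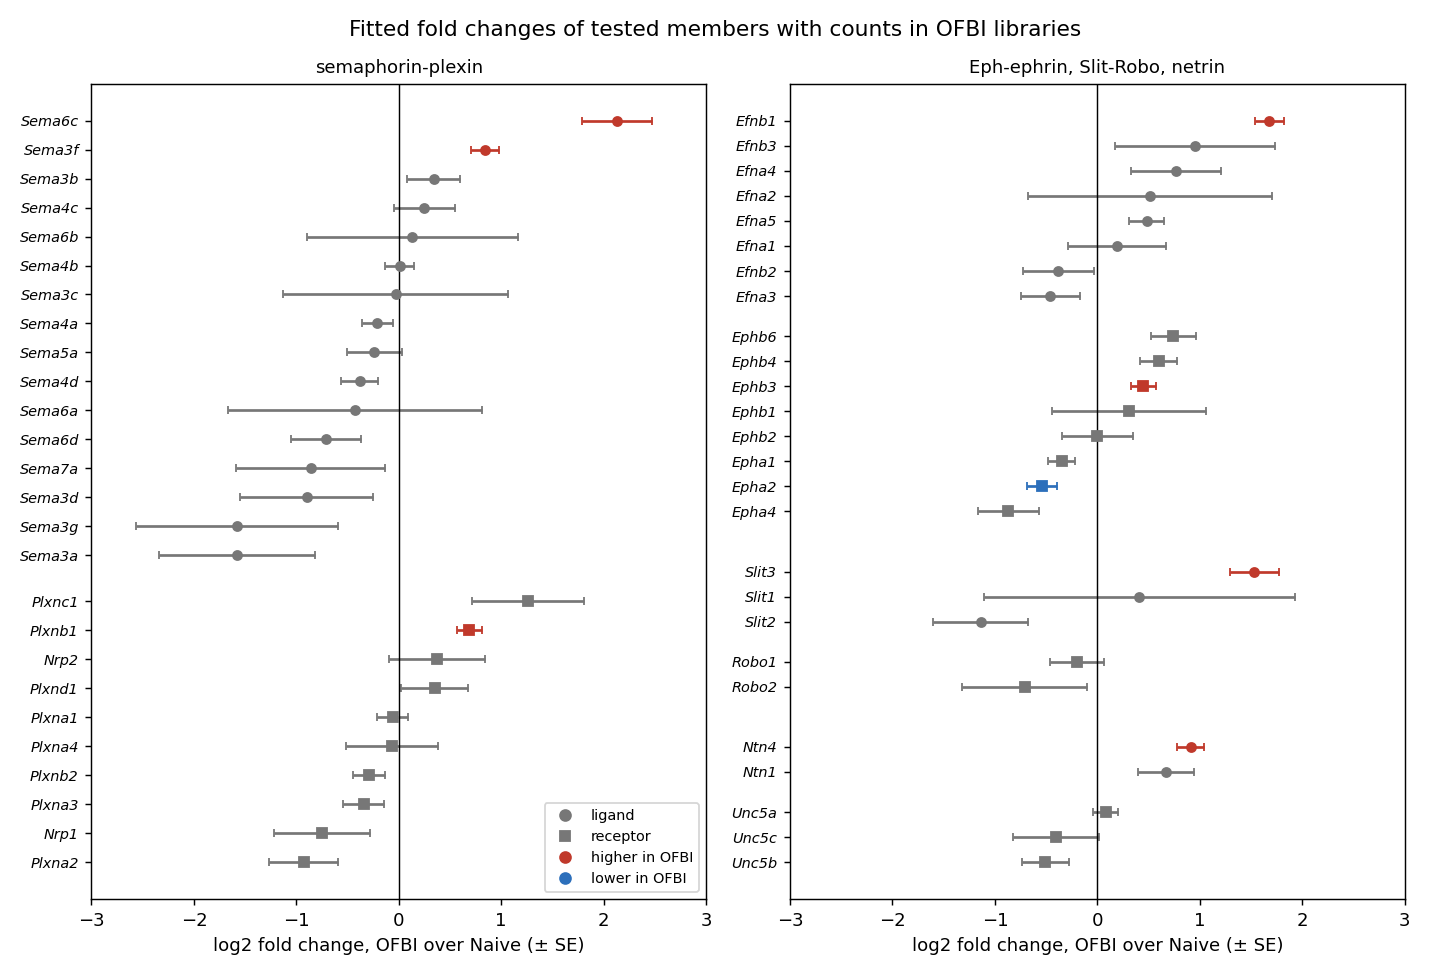
Fitted log2 fold changes of OFBI over Naive (x axis, points with SE bars) for the tested members that had at least 1 count in an OFBI library, grouped by subfamily. Circles are ligands and squares receptors, red marks genes higher and blue genes lower in OFBI at an adjusted p below 0.05, and the red ligands run between 0.84 for Sema3f and 2.13 for Sema6c.

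The libraries differed in depth with the groups, which touches every value here. The OFBI libraries held 1173472 to 3410476 estimated counts and the Naive libraries 41971752 to 47809779, and OFBI replicate 3 was the shallowest. Levels are given as CPM, the counts per unit of library total usual for RNA-seq, scaled by TMM, a normalization for library composition. Multiples of 4 were frequent among low counts, as if about 4 estimated counts stood for 1 sequenced fragment, which no source states. On that reading a single fragment is worth 1.24, 1.28 and 3.74 CPM in OFBI replicates 1, 2 and 3, and 0.079 to 0.0881 CPM in a Naive library. Of 8 corneal epithelium markers 5 were called higher and none lower, and the list summed to 60600 to 79400 CPM in OFBI and 30000 to 31200 CPM in Naive libraries. Of 8 keratocyte markers 3 were higher and 2 lower, with sums of 3420 to 5110 CPM in OFBI and 1150 to 1440 CPM in Naive libraries. Their median log2 fold change was -0.52, so the sum and the typical keratocyte marker went opposite ways. Of 11 Schwann cell markers 1 was higher and 3 lower, with sums of 556 to 883 CPM in OFBI and 1050 to 1170 CPM in Naive libraries, and Cdh19 was at 0 in all OFBI libraries. The median log2 fold change of the Schwann cell markers was -0.02. The 14 neuron markers summed to 15.8, 23.0 and 145 CPM in OFBI and 21.7 to 24.5 CPM in Naive libraries, and 7 of them were tested, with none called. Stmn2, Prph, Scn9a, Calca and Tac1 were at 0 in all OFBI libraries, and Calca and Scn10a in all Naive libraries. Of the tested markers, 7 of 7 of T and B lymphocytes, 4 of 4 of hepatocytes and 4 of 8 of cardiomyocytes were called higher in OFBI. The part of these shifts in the members' values was not tested.

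The promoters of 3 ligands that rose and of the receptor that fell are shown. Efnb1, Ntn4 and Slit3 are the ligands whose calls held under the most alternatives, 20, 18 and 18 of 21. Epha2 is the only member with OFBI counts that was called lower, and its call held under 7. Each of the 4 has a single annotated window. The RefSeq starts used here differ from the GENCODE gene starts given further on. The Ntn4 window lies within the GENCODE gene, and so does most of the Slit3 window. Each window runs 250 bases before to 50 bases after the RefSeq transcript start (GRCm38.p6), 5′ to 3′ on the plus strand, and capitals mark GC boxes, the letters GGGCGG or CCGCCC, which are known as binding sites of Sp and KLF factors.
Efnb1, chrX:99135811-99136110, plus strand: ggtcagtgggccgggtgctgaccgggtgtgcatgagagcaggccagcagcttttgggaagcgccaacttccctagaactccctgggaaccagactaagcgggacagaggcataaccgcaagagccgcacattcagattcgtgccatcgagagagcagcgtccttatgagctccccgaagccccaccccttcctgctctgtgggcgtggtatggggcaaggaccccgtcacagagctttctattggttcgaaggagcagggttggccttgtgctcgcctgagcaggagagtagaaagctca
Ntn4, chr10:93640799-93641098, plus strand: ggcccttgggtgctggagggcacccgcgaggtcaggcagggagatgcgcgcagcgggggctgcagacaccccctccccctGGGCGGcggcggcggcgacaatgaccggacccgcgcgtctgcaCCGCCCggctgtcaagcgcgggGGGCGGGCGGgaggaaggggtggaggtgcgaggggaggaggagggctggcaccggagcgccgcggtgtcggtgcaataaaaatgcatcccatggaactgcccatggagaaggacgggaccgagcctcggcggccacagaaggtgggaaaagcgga
Slit3, chr11:35121206-35121505, plus strand: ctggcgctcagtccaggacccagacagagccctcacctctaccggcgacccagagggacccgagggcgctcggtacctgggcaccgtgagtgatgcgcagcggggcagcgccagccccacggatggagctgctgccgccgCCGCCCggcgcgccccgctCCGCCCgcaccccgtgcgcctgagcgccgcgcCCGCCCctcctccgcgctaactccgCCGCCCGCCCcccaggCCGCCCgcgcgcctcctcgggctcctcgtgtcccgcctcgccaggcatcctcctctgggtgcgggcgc
Epha2, chr4:141300971-141301270, plus strand: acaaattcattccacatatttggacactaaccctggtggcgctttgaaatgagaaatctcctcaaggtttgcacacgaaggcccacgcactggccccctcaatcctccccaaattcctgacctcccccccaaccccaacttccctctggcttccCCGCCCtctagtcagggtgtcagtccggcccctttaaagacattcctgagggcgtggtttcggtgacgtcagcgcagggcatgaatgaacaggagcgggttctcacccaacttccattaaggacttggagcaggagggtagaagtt
The Slit3 window held 6 GC boxes and the Ntn4 window 4, some of them overlapping, the Epha2 window held 1 and the Efnb1 window none. RefSeq windows were matched for 57 members. Of their 73 windows 71.2% held at least 1 GC box, against 35.7% of all 32851 windows, and their median GC content was 64.3%, against 52.7%. A match describes these letters and does not show binding.

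Ephrin-B1, the product of Efnb1 (chromosome X, 99136130 to 99148991, GRCm38), is a transmembrane ligand of EphB receptors that also signals back into its own cell. Its level was 495, 536 and 638 CPM in the OFBI libraries, against 179, 166 and 175 CPM in the Naive libraries. All OFBI libraries lay above all Naive libraries, with the highest value in the shallowest library. The means were 556 ± 73.6 CPM in OFBI and 173 ± 6.74 CPM in Naive corneas (SD, n = 3 each). The log2 fold change was 1.68 (SE 0.14; adjusted p = 0.0053, edgeR), and it was 1.56 without OFBI replicate 3. With the trend on GC content and length removed it was 1.14 and still passed (edgeR adjusted p = 0.0145). The related ligand Efnb2, which in mice marks arteries during vessel development, had 151, 303 and 107 CPM in OFBI and 247, 244 and 243 CPM in Naive libraries. The groups overlapped for Efnb2, and its log2 fold change of -0.38 (SE 0.35) did not pass (edgeR adjusted p = 0.502). Efnb3 had at most 3.84 CPM in any library. Per kilobase of the longest transcript, Efnb1 ranked 2 among the 67 members in OFBI, at 171 CPM per kb, and 10 in Naive corneas, at 53.1 CPM per kb.

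None of the 5 ephrin-A genes, which encode ligands held by a lipid anchor, passed the edgeR test, and 1, Efna5, had an unadjusted p below 0.05. Efna5 had 162, 190 and 152 CPM in OFBI and 141, 117 and 104 CPM in Naive libraries, without overlap. Its log2 fold change was 0.48 (SE 0.17; adjusted p = 0.0971, edgeR), and DESeq2 called it (adjusted p = 0.0343), as did edgeR with the trend on GC content and length removed (0.80, adjusted p = 0.0281). Efna1, Efna3 and Efna4 had log2 fold changes of 0.19, -0.46 and 0.77 with overlapping groups, and Efna2 rested on 8 counts in 1 OFBI library. Summed over the 8 ephrin genes, the level was 919, 1140 and 1040 CPM in OFBI, against 676, 653 and 608 CPM in Naive libraries, and the sum over the 14 Eph receptors was 1180, 1190 and 1170 CPM in OFBI, against 1150, 1190 and 1210 CPM in Naive libraries. The ligand sums did not overlap and the receptor sums did.

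Behind the like receptor totals, Ephb3, Ephb4 and Ephb6 lay above and Epha1, Epha2 and Epha4 below their Naive levels in every library, though with the trend on GC content and length removed the log2 fold changes of the first 3 were -0.04, -0.02 and 0.02. Ephb3, an epithelial receptor known for placing cells along the gut crypt (chromosome 16, 21204755 to 21223305), had 388, 397 and 395 CPM in OFBI, against 266, 287 and 310 CPM in Naive libraries. Its log2 fold change was 0.45 (SE 0.12; adjusted p = 0.0419, edgeR). The groups did not overlap, but the call was lost with that trend removed (edgeR adjusted p = 0.902, within a range of 0.000153 to 0.902 under its alternatives) and without OFBI replicate 1 or 2 (0.0841 and 0.0746). Ephb4, a receptor of veins and lymphatics, had 151, 122 and 180 CPM in OFBI, against 101, 104 and 92.5 CPM in Naive libraries. Ephb6, which lacks kinase activity, had 121, 120 and 197 CPM in OFBI, against 87.1, 85.1 and 88.4 CPM in Naive libraries. Neither group pair overlapped, the log2 fold changes were 0.60 and 0.74, and both missed the edgeR threshold (adjusted p = 0.0541 and 0.0568) and passed DESeq2 (adjusted p = 0.00935 and 0.0157). Ephb1 and Ephb2 had log2 fold changes of 0.31 and 0.00 with overlapping groups.

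Epha2, a receptor abundant in epithelia and in the lens (chromosome 4, 141301240 to 141329384), fell to 228, 229 and 173 CPM in OFBI, against 293, 316 and 311 CPM in Naive libraries. The groups did not overlap, and the log2 fold change was -0.54 (SE 0.15; adjusted p = 0.0475, edgeR). It was -0.97 with the trend on GC content and length removed (edgeR adjusted p = 0.0286), and its adjusted p ranged from 0.00127 to 0.246 over its alternatives, with 0.0701 without OFBI replicate 1. Epha1, another epithelial receptor, had 175, 169 and 150 CPM in OFBI, against 195, 212 and 222 CPM in Naive libraries. Epha4, which binds ephrins of both classes, had 75.7, 127 and 53.3 CPM in OFBI, against 169, 155 and 152 CPM in Naive libraries. Both groups were separate, with log2 fold changes of -0.35 and -0.87 that missed the edgeR threshold (adjusted p = 0.121 and 0.0848) and passed DESeq2 (adjusted p = 0.0275 and 0.0338). With DESeq2, 11 members were higher and 3 lower of 62, against 12.7% and 12.0% of all genes it tested.

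A ratio of genes within a library does not depend on how libraries are scaled, but a trend with GC content can move it. These ratios were chosen after the values were seen and carry no test. The summed EphB receptors were 1.46, 1.26 and 2.12 times the summed EphA receptors in the OFBI libraries, against 0.734, 0.735 and 0.756 times in the Naive libraries. GC contents were 58.4% for Ephb4 and 59.4% for Ephb6, against 56.9% for Epha2 and 45.6% for Epha4. This ratio was not computed with the trend on GC content and length removed. The ratio of Ephb3 to Epha2, whose longest transcripts have GC contents of 57.0% and 56.9%, was 1.70, 1.73 and 2.28 in OFBI and 0.908, 0.911 and 0.999 in Naive libraries. Neither ratio overlapped between the groups. A ratio shows that the pair changed unequally and not which gene changed.

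**Figure D2:**
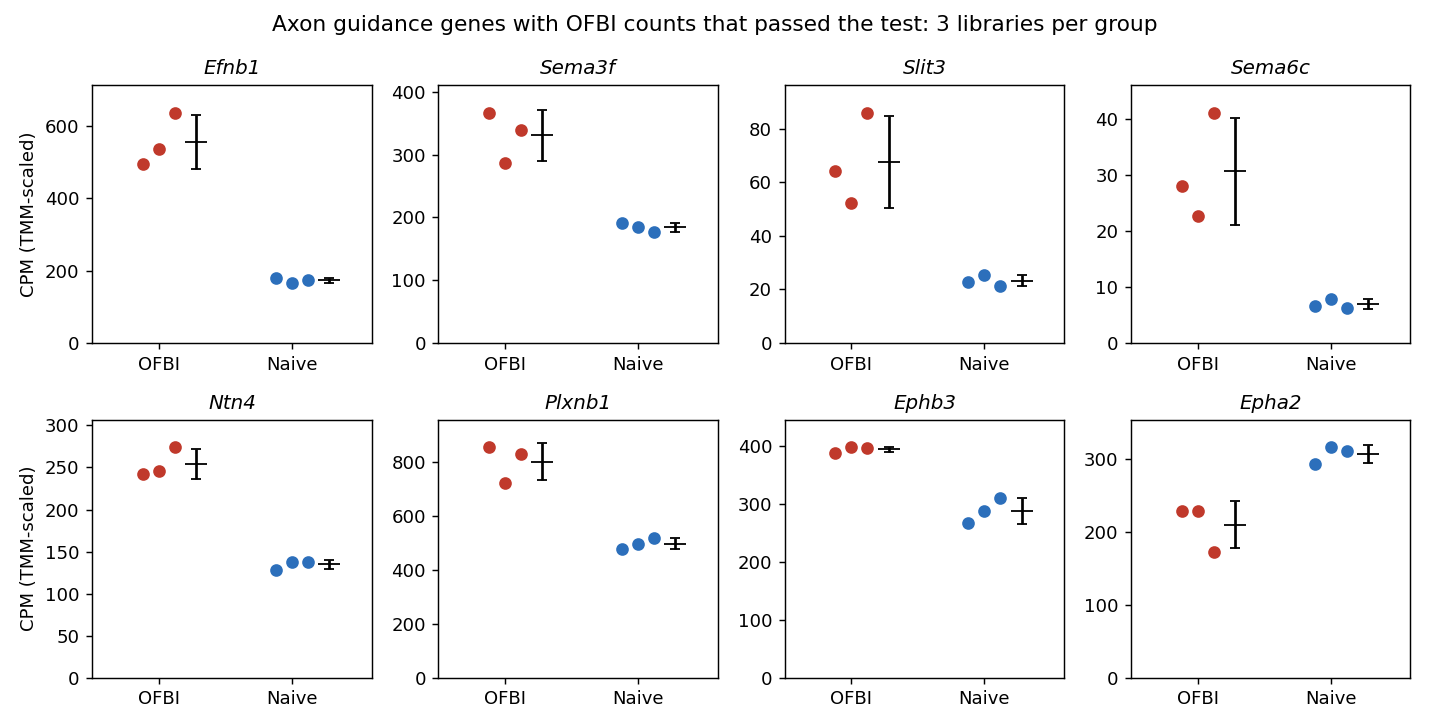
Levels in CPM (y axes, from 0) of the 8 members that passed the test and had counts in OFBI libraries, with 1 point per library, OFBI left of Naive, and the mean ± SD beside each group. The OFBI points lie above all Naive points in 7 panels and below them for Epha2, at 173 to 229 CPM in OFBI and 293 to 316 CPM in Naive libraries.

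In the semaphorin-plexin subfamily 3 of 29 tested genes rose and 3 were called lower, or 10.3% each, against 8.41% and 10.4% of all genes tested. The 3 called lower, Sema3e, Sema4g and Sema5b, had no count in any OFBI library. Their Naive levels were below what those libraries could detect, as given further on. The subfamily's median log2 fold change was -0.24, against -0.20 over all genes tested. Sema3f (chromosome 9, 107681500 to 107710475) encodes a secreted semaphorin that repels neuropilin-2-bearing axons and endothelial cells. It had 367, 287 and 339 CPM in OFBI, against 191, 185 and 177 CPM in Naive libraries. The groups did not overlap, and the log2 fold change was 0.84 (SE 0.14; adjusted p = 0.0147, edgeR). It was 0.26 and did not pass with the trend on GC content and length removed (edgeR adjusted p = 0.235, within a range of 2.35e-08 to 0.235 under its alternatives).

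Sema6c (chromosome 3, 95160457 to 95174024), a transmembrane semaphorin, had 28.1, 22.7 and 41.2 CPM in OFBI, against 6.68, 7.91 and 6.19 CPM in Naive libraries. Every OFBI library lay above every Naive library, and the log2 fold change was 2.13 (SE 0.34; adjusted p = 0.0140, edgeR). The OFBI values rested on 91, 71 and 44 estimated counts. With the trend on GC content and length removed it was 1.10 and still passed (edgeR adjusted p = 0.0408). The other class 6 genes Sema6a, Sema6b and Sema6d had log2 fold changes of -0.43, 0.13 and -0.71 and did not pass.

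Of the other class 3 genes, which encode secreted ligands like Sema3f, Sema3e was called lower at 0 OFBI counts and the other 5 did not pass. Sema3b had a log2 fold change of 0.34, and Sema3a, a classic axon repellent, had one of -1.58 (SE 0.76; adjusted p = 0.202, edgeR). Sema3a had 2.16, 1.28 and 0 CPM in OFBI and 4.66, 3.62 and 3.72 CPM in Naive libraries, with 11 estimated counts in all over OFBI, so its values rest on very few fragments. Sema3d had 13.3, 45.8 and 3.74 CPM in OFBI and 41.9, 41.2 and 41.4 CPM in Naive libraries, and overlapped. Sema3c and Sema3g had log2 fold changes of -0.03 and -1.58 on 46 and 4 OFBI counts.

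Class 4 semaphorins are membrane ligands with roles in epithelia and the immune system, and Sema4b, Sema4d and Sema4a were, with Sema3f, the 4 most abundant semaphorins per kilobase in both groups. Sema4b had 358, 285 and 326 CPM in OFBI and 298, 330 and 336 CPM in Naive libraries, a log2 fold change of 0.01 (SE 0.14; adjusted p = 0.981, edgeR), whose sign turned under several alternatives. Sema4d and Sema4a lay below Naive in every OFBI library, with log2 fold changes of -0.38 and -0.21, and did not pass (edgeR adjusted p = 0.200 and 0.369). Sema4d had 326, 237 and 210 CPM in OFBI and 340, 339 and 326 CPM in Naive libraries, so its first OFBI value equals the lowest Naive value to 3 digits. Sema4c, Sema5a and Sema7a had log2 fold changes of 0.25, -0.24 and -0.86 with overlapping groups.

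Plexins were led by the B class, receptors of class 4 semaphorins. Plxnb1 (chromosome 9, 109095389 to 109119917), the receptor of Sema4d, had 853, 721 and 827 CPM in OFBI, against 476, 495 and 517 CPM in Naive libraries. The groups did not overlap, and the log2 fold change was 0.69 (SE 0.12; adjusted p = 0.0170, edgeR). With the trend on GC content and length removed it was 0.03 and did not pass (edgeR adjusted p = 0.932, within a range of 1.65e-08 to 0.932 under its alternatives). Plxnb2, the most abundant member per kilobase in both groups, had 1380, 1150 and 945 CPM in OFBI and 1300, 1470 and 1470 CPM in Naive libraries, and its log2 fold change of -0.29 (SE 0.16) did not pass (edgeR adjusted p = 0.264). The ratio of Plxnb1 to Plxnb2 was 0.619, 0.629 and 0.875 in OFBI, against 0.365, 0.336 and 0.352 in Naive libraries, with GC contents of 57.6% and 57.3%. Like the Eph ratios it was chosen after the values were seen.

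The remaining semaphorin receptors did not pass. Plxna2 had 65.8, 74.3 and 25.3 CPM in OFBI, against 116, 106 and 103 CPM in Naive libraries, without overlap, and a log2 fold change of -0.93 (SE 0.34; adjusted p = 0.107, edgeR). Plxnc1, the receptor of Sema7a, had 11.1, 5.44 and 16.8 CPM in OFBI, against 3.83, 4.79 and 5.00 CPM in Naive libraries, and a log2 fold change of 1.26 (SE 0.55; adjusted p = 0.163, edgeR). Nrp1 had 5.87, 7.68 and 16.8 CPM in OFBI and 16.7, 14.1 and 17.4 CPM in Naive libraries, and Nrp2 had 49.5, 56.3 and 12.2 CPM in OFBI and 29.5, 35.1 and 29.5 CPM in Naive libraries. For both neuropilins OFBI replicate 3 lay apart from the other OFBI libraries. Without it Nrp1 was called lower and Nrp2 higher, with log2 fold changes of -1.26 and 0.75 (edgeR adjusted p = 0.0224 and 0.025). Plxna1, Plxna3, Plxna4 and Plxnd1 had log2 fold changes of -0.06, -0.34, -0.07 and 0.35.

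Of the 5 tested Slit-Robo genes Slit3 rose and the other 4 did not pass. Slit3 (chromosome 11, 35121224 to 35708507), a secreted Robo ligand, had 64.3, 52.2 and 86.0 CPM in OFBI, against 22.9, 25.3 and 21.2 CPM in Naive libraries. The groups did not overlap. The log2 fold change was 1.53 (SE 0.24; adjusted p = 0.0132, edgeR), and with the trend on GC content and length removed it was 1.02 (edgeR adjusted p = 0.0269). Slit2 had 18.5, 5.12 and 11.2 CPM in OFBI, against 25.5, 27.7 and 24.1 CPM in Naive libraries, without overlap, and a log2 fold change of -1.14 (SE 0.46) that did not pass (edgeR adjusted p = 0.134). Without OFBI replicate 1 it was -1.81 and passed (edgeR adjusted p = 0.0406). Slit1 rested on 4 counts in 1 OFBI library, with 0.216 to 0.889 CPM in Naive libraries. The ratio of Slit3 to Slit2 was 3.47, 10.2 and 7.67 in OFBI, against 0.896, 0.913 and 0.879 in Naive libraries, but the GC contents of their transcripts were 56.8% and 45.5%. The receptors Robo1 and Robo2 had log2 fold changes of -0.20 and -0.71 with overlapping groups, and Robo1 had 29.1, 26.6 and 44.0 CPM in OFBI and 41.1, 37.5 and 33.3 CPM in Naive libraries.

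Of the 5 tested netrin genes Ntn4 rose and the other 4 did not pass. Netrin-4, from Ntn4 (chromosome 10, 93640681 to 93747207), is a basement membrane protein that binds laminin. Ntn4 had 242, 246 and 274 CPM in OFBI, against 128, 138 and 138 CPM in Naive libraries. The groups were far apart beside their spread, with means of 254 ± 17.6 CPM in OFBI and 135 ± 5.80 CPM in Naive corneas (SD, n = 3 each). The log2 fold change was 0.91 (SE 0.13; adjusted p = 0.0100, edgeR), and 0.94 with the trend on GC content and length removed (edgeR adjusted p = 0.0178). Ntn1, the classic secreted netrin, had 58.1, 60.5 and 33.7 CPM in OFBI and 28.6, 36.3 and 32.1 CPM in Naive libraries. Its log2 fold change of 0.67 (SE 0.27) did not pass (edgeR adjusted p = 0.128), but it passed without OFBI replicate 3 (0.87, adjusted p = 0.0156). The ratio of Ntn4 to Ntn1 was 4.16, 4.06 and 8.14 in OFBI and 4.48, 3.8 and 4.3 in Naive libraries, and overlapped.

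No netrin receptor was called with the TMM scaling. Unc5a, by far the most abundant of them, had 235, 222 and 210 CPM in OFBI and 216, 213 and 201 CPM in Naive libraries, a log2 fold change of 0.08 (SE 0.12; adjusted p = 0.685, edgeR). That sign turned with library size as the only scaling (-0.12) and with the trend on GC content and length removed, where Unc5a was called lower at -0.96 (edgeR adjusted p = 0.0357). Unc5b, which is also made by endothelial cells, had 50.1, 33.0 and 36.5 CPM in OFBI, against 51.5, 65.5 and 54.2 CPM in Naive libraries. The groups of Unc5b did not overlap, and its log2 fold change of -0.51 (SE 0.23) did not pass (edgeR adjusted p = 0.171), while it was -1.21 and passed with that trend removed (edgeR adjusted p = 0.0282). Unc5c had 6.49, 13.1 and 7.48 CPM in OFBI and 11.1, 12.9 and 12.1 CPM in Naive libraries, which overlapped, and a log2 fold change of -0.40. Dcc had 24, 14 and 16 counts in the Naive libraries and 4 counts in all over OFBI, and was not tested.

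**Figure D3:**
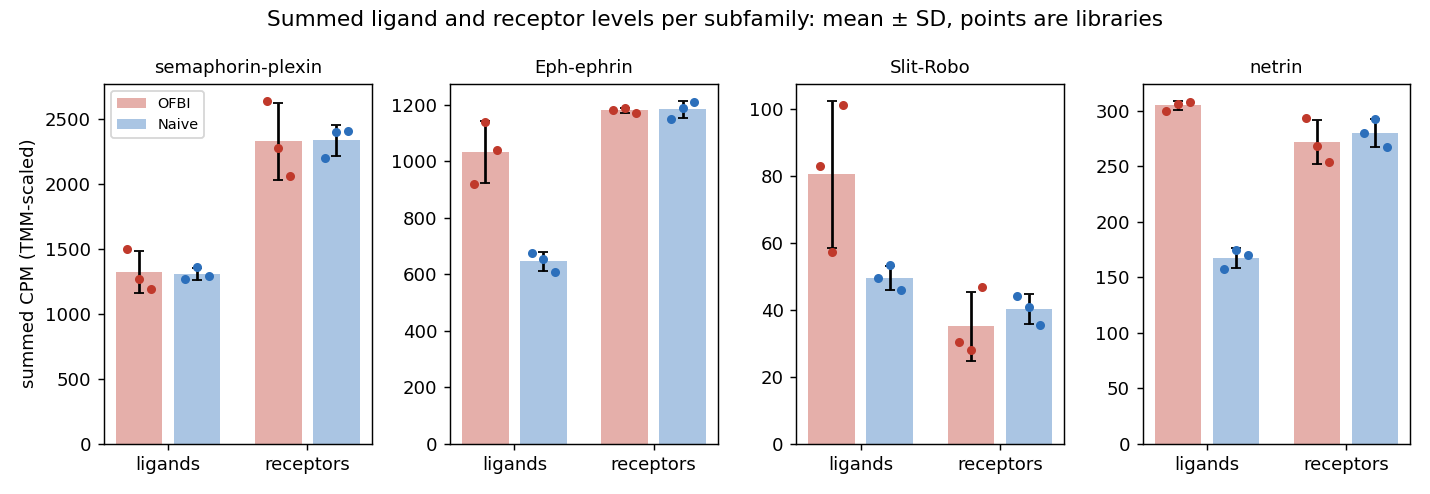
Summed CPM (y axes, from 0) of the ligands and of the receptors of each subfamily, with bars for the mean, error bars for the SD and 1 point per library, OFBI left of Naive. Ligand sums of the Eph-ephrin, Slit-Robo and netrin subfamilies lie above the Naive points in every OFBI library, while the receptor sums overlap.

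In the Eph-ephrin, Slit-Robo and netrin subfamilies the ligand sums differed more than the receptor sums. Netrin ligands summed to 305 ± 4.20 CPM in OFBI and 167 ± 9.13 CPM in Naive corneas, and their receptors to 272 ± 19.8 CPM in OFBI and 280 ± 12.4 CPM in Naive corneas (SD, n = 3 each). Slit ligands summed to 80.4 ± 22.0 CPM in OFBI and 49.4 ± 3.70 CPM in Naive corneas, and Robo receptors to 35.0 ± 10.3 CPM in OFBI and 40.1 ± 4.46 CPM in Naive corneas. Semaphorins summed to 1320 ± 162 CPM in OFBI and 1300 ± 46.2 CPM in Naive corneas, and plexins with neuropilins to 2330 ± 289 CPM in OFBI and 2340 ± 119 CPM in Naive corneas, so the groups overlapped for both. The ratio of summed ligands to summed receptors does not depend on scaling, was likewise chosen after the values were seen and carries no test. It was 0.78, 0.963 and 0.886 in OFBI, against 0.59, 0.549 and 0.503 in Naive libraries for the Eph-ephrin genes, 2.73, 2.06 and 2.16 in OFBI, against 1.11, 1.31 and 1.3 in Naive libraries for the Slit-Robo genes, and 1.02, 1.14 and 1.21 in OFBI, against 0.561, 0.597 and 0.636 in Naive libraries for the netrin genes. These 3 ratios did not overlap between the groups, while the semaphorin-plexin ratio was 0.57, 0.558 and 0.576 in OFBI and 0.575, 0.565 and 0.536 in Naive libraries and overlapped. A trend with GC content can move such ratios, and they were not computed with that trend removed. GC contents were 56.8% for Slit3 and 49.5% for Robo1, and 51.1% for Ntn4 and 62.7% for Unc5a. Each sum is carried by its most abundant genes, Efnb1, Slit3 and Ntn4 where it was higher. The netrin ligand sum thus rests mainly on the gene of the laminin-binding netrin-4 and not on Ntn1, which did not pass. Subfamilies were not tested against each other. Their median log2 fold changes over tested members were -0.24 for semaphorin-plexin, 0.25 for Eph-ephrin, -0.20 for Slit-Robo and 0.08 for netrin genes, beside -0.20 over all genes tested. Groups did not overlap for 12 tested members that lay above and 17 that lay below Naive, against 16.4% and 29.9% of all tested genes, or 46.4% in either direction.

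GC content of the transcripts moved with the fold changes over all genes. The median log2 fold change was -0.54 in the 20% of tested genes with the lowest GC content and 0.31 in the 20% with the highest, from 55.8% upward. Of the 57 tested members 29 lay in that highest bin, as did 6 of the 7 that rose, all but Ntn4. With a trend on GC content and transcript length removed within each library, Efnb1, Slit3, Sema6c and Ntn4 still rose, as did Efna5, against 6.32% of all genes. Sema3f, Plxnb1 and Ephb3 no longer passed. The lower calls then numbered 10, with Plxnb2, Plxna3, Unc5a, Unc5b and Epha1 added and Epha7 no longer called (edgeR adjusted p = 0.0579), against 8.55% of all genes. With the Naive libraries thinned and the trend kept, Sema3f, Plxnb1 and Ephb3 had log2 fold changes of 0.97, 0.75 and 0.5 and passed. The trend with GC content and the depth both followed the groups, so their parts in the differences cannot be told apart.

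**Figure D4:**
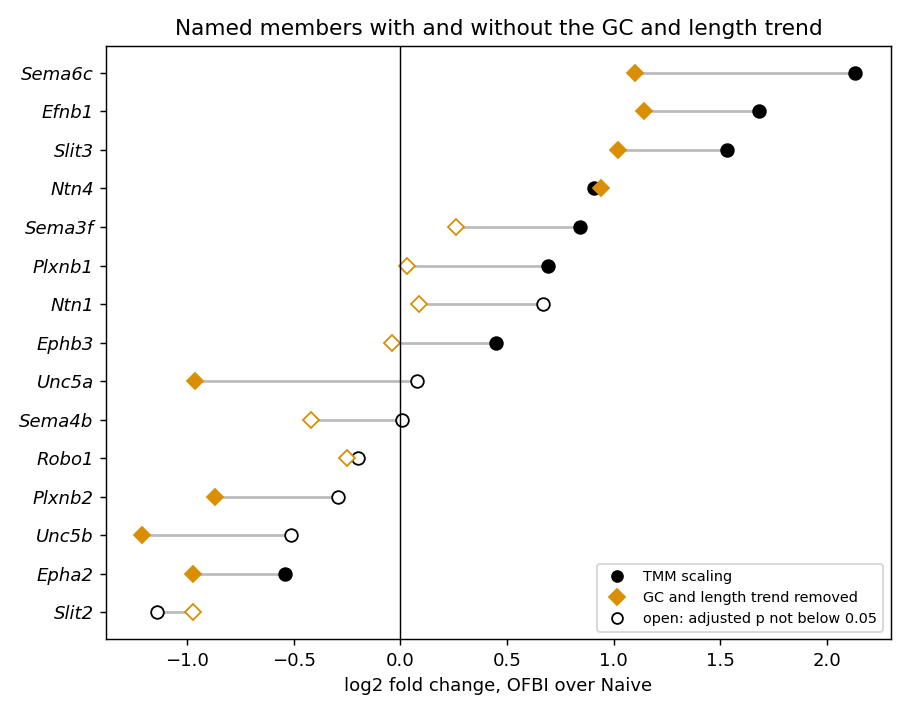
Log2 fold changes of OFBI over Naive (x axis) of named members with counts in OFBI libraries, with TMM scaling (black circles) and with a trend on GC content and transcript length removed (orange diamonds), filled where the adjusted p was below 0.05. Ntn4 stays at 0.91 and 0.94, while Plxnb1 moves between 0.69 and 0.03.

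The 5 other members called lower were Sema3e, Sema4g, Sema5b, Epha5 and Epha7, and each was at 0 in all 3 OFBI libraries. Sema4g had 2.02, 1.16 and 1.43 CPM in the Naive libraries, and the others averaged 0.812 to 1.32 CPM. A count of 0 over the OFBI group allows a level of up to 1.62 CPM, taken as 12 estimated counts or 3 fragments, which covers counting error only. All 5 Naive levels were at or under this floor, so a difference was not detectable at this depth and no fold is given. In all, 11 members were at 0 in every OFBI library, the other 6 being Plxnb3, Epha6, Epha8, Epha10, Robo3 and Ntn5, and all 11 were under the floor. These 6, with Sema4f, Epha3, Dcc and Unc5d, are the 10 members that did not pass the filter on low counts.

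**Figure D5:**
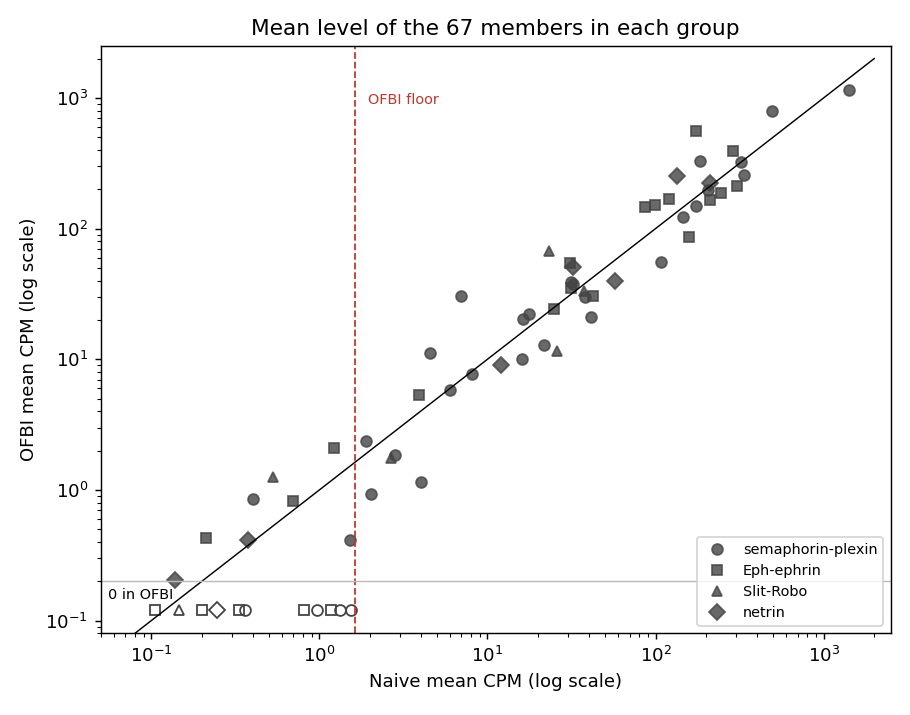
Mean CPM of all 67 members in Naive (x axis) and OFBI corneas (y axis), both on log scales, with the line of equal levels. Open symbols in the bottom strip are the 11 members at 0 in every OFBI library, and all of them lie left of the dashed line at 1.62 CPM, the OFBI floor.

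Among 68 other genes of these pathways, 66 were tested, and 9 rose and 10 were called lower, or 13.6% and 15.2% against 8.41% and 10.4% of all genes. Scaled by library size alone, 6 of the 66 were higher and 15 lower, against 6.21% and 14.6% of all genes. Thinning the Naive libraries left 55 tested, with 10 higher and 2 lower, against 9.11% and 4.95%. Thinning all libraries left 49 tested, with 9 higher and 3 lower, against 9.80% and 4.25%. Dividing counts by 4 left 58 tested, with 11 higher and 4 lower, against 12.6% and 10.4%. Cfl1, which encodes the actin-severing protein cofilin, had 177, 177 and 360 CPM in OFBI, against 77.5, 83.1 and 82.7 CPM in Naive libraries (log2 fold change 1.54, edgeR adjusted p = 0.0201). Enah, an actin-elongation factor that acts in netrin and Slit signalling, had 54.7, 71.1 and 63.6 CPM in OFBI, against 29.5, 24.2 and 26.0 CPM in Naive libraries (1.25, edgeR adjusted p = 0.0139). Both were separate between the groups.

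Farp1, a plexin partner that activates Rac, and Mical3, of a family of plexin-binding oxidases, had log2 fold changes of 1.89 and 0.94, and the kinase gene Pak1 one of 0.90. Rgmb, a ligand of the netrin receptor neogenin, and the sheddase gene Adam10, which cleaves ephrins, had values of 0.93 and 1.32, and Rhoa and the cofilin phosphatase gene Ssh1 had 0.54 and 0.62. With the trend on GC content and length removed, Mical3 and Ssh1 no longer passed (edgeR adjusted p = 0.0684 and 0.171).

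Of the 10 lower genes, 4 had OFBI counts. Mical2 fell to 11.1, 19.8 and 3.74 CPM in OFBI, against 46.9, 43.5 and 41.8 CPM in Naive libraries (log2 fold change -1.83, edgeR adjusted p = 0.0363). The actin-binding gene Ablim1 had a log2 fold change of -1.07, the adhesion gene Chl1 one of -0.58 and Met, the receptor of hepatocyte growth factor, one of -0.90. With the trend on GC content and length removed, Chl1 and Met did not pass (edgeR adjusted p = 0.321 and 0.0728). Ntng1, Lrrc4c, Dpysl4, Dpysl5 and Cntn2 were at 0 in all OFBI libraries with Naive levels under the floor. Robo4, an endothelial Robo, was also at 0, with a Naive level 1.04 times the floor.

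The edgeR calls depended on each Naive library. Leaving out Naive replicate 1, 2 or 3, edgeR called 1, 0 and 1 members, and the 1 member was Efnb1 both times, higher. Over all genes 0.802%, 0.00% and 0.793% were then higher and 0.0744%, 0.00% and 0.0660% lower and before adjustment 2611, 2441 and 2615 genes had p under 0.05. The 8 called members with OFBI counts were tested in each of these fits and stayed below 0.05 before adjustment, and DESeq2 kept 8, 6 and 7 of them. DESeq2 then called 8, 6 and 7 members higher, against 9.60%, 7.61% and 9.03% of all genes, and 1, 0 and 0 lower, against 4.94%, 3.66% and 4.64%. Without OFBI replicate 3 all 8 still passed by edgeR, and 10 members were higher and 7 lower, against 10.8% and 13.8% of all genes. Without OFBI replicate 1, 6 were higher and 2 lower, against 6.64% and 7.77%, and without OFBI replicate 2, 9 were higher and 4 lower, against 9.16% and 11.5%. Of the members not called with all libraries, edgeR called Sema4d and Slit2 (lower) without replicate 1, Ephb4, Ephb6 and Plxnc1 (higher) and Efnb2, Epha4 and Sema3d (lower) without replicate 2, and Ephb6, Nrp2 and Ntn1 (higher) and Nrp1 and Plxna2 (lower) without replicate 3.

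By limma-voom 7 members were higher and 3 lower, against 7.31% and 8.95% of all genes. With no filter 6 were higher and 1 lower, against 5.57% and 5.37%, and with a filter of 1 CPM in 3 libraries 7 and 3, against 8.88% and 8.24%. With the Naive libraries thinned to the total of OFBI replicate 1, 8 were higher and 0 lower, against 9.11% and 4.95%, and with all libraries thinned to the shallowest total 8 and 0, against 9.80% and 4.25%. With counts divided by 4, 10 were higher and 2 lower, against 12.6% and 10.4%.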

How the data were processed

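The authors deposited 1 table per library of estimated counts per gene symbol, whole numbers not scaled for depth. Per the submitters' processing notes the build was GRCm38 and the tools included HISAT2, StringTie, DESeq2 and FastQC, and per the labels' protocols the kit was stranded. Tool roles and versions, annotation and strand setting were not given in the sources used here. Rows sharing a symbol were summed, 64 rows on 31 symbols. Members and gene lists were chosen with earlier results of these data known.

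The test was that of edgeR 4.0.16, run under R 4.3.3 (filterByExpr, TMM factors of 0.916 to 1.08, quasi-likelihood fit on group, Benjamini-Hochberg over 13941 genes, two-sided, threshold 0.05), and the procedure was tested on simulated data. Those data held no GC trend, no excess of multiples of 4 and no changed gene of very low level. They therefore cannot speak to the calls that these features touch. The SE is the size of the log2 fold change over the square root of F. P-values measure the spread between pools, and all libraries carry batch number 4. No pair of libraries agreed within sampling noise. Lengths, GC contents and coordinates are those of GENCODE mouse release 21 (GRCm38), longest transcript, 1-based, with all 67 members matched. The text names every member or listed partner past the threshold, and in each subfamily the 3 most abundant members and the 2 with the smallest p. Other members are given by values or ranges, and the ratios were added after seeing the data. Alternatives were DESeq2 1.42.0, limma-voom (limma 3.58.1), other scalings and filters, a replicate block, thinning to the depth of shallower libraries, counts divided by 4, a GC and length trend removed with mgcv 1.9.3, and each library left out. DESeq2 without each Naive library was added after seeing the data.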

Additional observations from a re-analysis of the deposited data

How the results depend on the processing

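Direction held for Efnb1, Sema6c, Slit3, Ntn4, Sema3f, Plxnb1 and Epha2 under all 21 alternatives. Efnb1 passed in 20, Slit3 and Ntn4 in 18, Sema6c and Sema3f in 17, Plxnb1 in 16, Ephb3 in 11 and Epha2 in 7. The members called higher numbered 7 and those lower 6. With DESeq2 they were 11 and 3, and with a replicate block 4 (Efnb1, Slit3, Ntn4 and Sema3f) and 0, with 14 members at an unadjusted p below 0.05, beside 540 and 253 of all 13941 genes. The lower calls were 3 with limma-voom, 1 with no filter, 3 with a filter of 1 CPM in 3 libraries, 0 with the Naive or all libraries thinned, 2 with counts divided by 4 and 10 with the GC and length trend removed. Fewer members passed the filter after thinning, 45 and 40, and the 5 called lower at 0 OFBI counts were among those that did not. Leaving out 1 library each gave 0 to 10 higher and 0 to 7 lower.

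The median log2 fold change of semaphorin-plexin members, -0.24, was -0.02 with all libraries thinned and -0.55 with the GC and length trend removed, that of Eph-ephrin members, 0.25, was -0.03 with that trend removed, -0.04 with the replicate block, 0.05 with library size only and 0.08 with no filter, that of Slit-Robo members, -0.20, was -0.68 with the replicate block, and that of netrin members, 0.08, was 0.32 with DESeq2, -0.12 with library size only, 0.22 with no filter, 0.17 with the Naive libraries thinned and -0.24 with that trend removed. With 1 library left out, medians ranged from -0.40 to -0.04 for semaphorin-plexin, 0.16 to 0.40 for Eph-ephrin, -1.08 to -0.08 for Slit-Robo and -0.09 to 0.71 for netrin members. Signs turned for Ephb3 (-0.04) and Unc5a (-0.96) with the trend removed, for Unc5a with library size only (-0.12), and for Sema4b with library size only (-0.20), no filter (-0.01), the trend removed (-0.42), without OFBI replicate 1 (-0.11) or 3 (-0.01), and without Naive replicate 1 by edgeR (-0.01) or DESeq2 (-0.04). With 1 library left out, Sema4b ranged from -0.11 to 0.07. The causes were not tested. Same-numbered libraries did not deviate together, with correlations of -0.01, -0.02 and 0.01 across genes. Counting noise in the shallow OFBI libraries could hide a shared deviation, so these values cannot exclude a pairing of the pools. No label ties the numbers across groups, and the block is given as an alternative only. The OFBI depth limits members under 1.62 CPM.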

Other observations

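Of 11 blood endothelium markers 1 was called higher and 1 lower, with sums of 55.2 to 97.0 CPM in OFBI and 50.6 to 56.4 CPM in Naive libraries. Of 5 lymphatic endothelium markers 4 were tested and none was called, and they summed to 56.3 to 77.6 CPM in OFBI and 87.3 to 107 CPM in Naive libraries, and Lyve1 was at 0 in all OFBI libraries. Of 7 pericyte and smooth muscle markers 2 were called higher, with sums of 1730 to 2030 CPM in OFBI and 1110 to 1230 CPM in Naive libraries. Of 9 macrophage markers 3 were higher, with sums of 112 to 156 CPM in OFBI and 92.3 to 93.6 CPM in Naive libraries. Of 7 corneal endothelium markers 3 were lower, with sums of 639 to 887 CPM in OFBI and 1010 to 1100 CPM in Naive libraries.

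Of the markers of neighbouring eye tissues, 2 of 7 for lens were higher and 3 of 6 for retina lower. The lens markers summed to 591 to 927 CPM in OFBI and 249 to 274 CPM in Naive libraries, and the retina markers to 70.5 to 119 CPM in OFBI and 208 to 230 CPM in Naive libraries. Of 8 skeletal muscle markers 1 was higher and 1 lower, with sums of 214 to 232 CPM in OFBI and 227 to 232 CPM in Naive libraries. T and B lymphocyte markers summed to 33.9 to 238 CPM in OFBI and 5.24 to 7.01 CPM in Naive libraries, hepatocyte markers to 132 to 978 CPM in OFBI and 19.4 to 29.5 CPM in Naive libraries, and cardiomyocyte markers to 18.9 to 204 CPM in OFBI and 16.3 to 21 CPM in Naive libraries. The part of any of these in the members' differences was not tested.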
